A study of Mus musculus with 1504 samples.

Results

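The 9 genes described here, of calcium entry and calcium release, were followed through single cells of mouse lung vessels: Cacna1c, Cacna1g, Cacna1h, Trpc6, Trpv2, Ano1, Itpr1, Itpr2 and Ryr2. They were chosen as calcium and calcium-linked channels of mural cells, with earlier results of these data known, and taken by symbol from the deposited read counts. All 9 are among the 21947 genes counted. Mural cells are the pericytes and smooth muscle cells that wrap blood vessels, and their tension follows the level of free calcium. Voltage-gated channels such as Cacna1c admit calcium when the membrane depolarises, TRP channels carry cation current across the membrane, and IP3 receptors and ryanodine receptors release calcium from the sarcoplasmic reticulum. Chloride leaving through Ano1, a channel opened by calcium, depolarises the cell further, and in the lung these routes are known for their place in vessel tone and in the constriction caused by low oxygen.

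Cells came from lungs of adult C57BL/6 mice and were sorted by fluorescence into plates of wells for SMART-seq2, which copies and sequences full-length polyadenylated RNA. The labels give 769 cells of Cldn5(BAC)eGFP mice, 374 of Pdgfrb(BAC)eGFP mice and 361 of Pdgfrb(BAC)eGFP/NG2dsRed mice, aged 12 to 15 weeks by the sample labels and 10 to 19 weeks by the series design. Each reporter is a transgene, NG2 is the protein made from Cspg4, and Pdgfrb is also active in fibroblasts. Columns of the count table lie in 6 sets, called EC1, EC2, EC3, Mural1, Mural2 and Mural3, with 243, 275, 251, 128, 233 and 374 cells. The EC sets were taken as the Cldn5(BAC)eGFP cells. The Mural sets are called by their own names, because no column name gives a reporter.

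Each cell held 100229 to 609242 reads in genes, with a median of 240178. No animal, plate or date is given, so each population counts as 1 sample, and differences are given by size, with no test and no p-value. Levels are CPM, the reads of a gene summed over the cells of a group, per 1000000 reads of that group, and bounds are 95% intervals for counting error only, since reads without molecular identifiers are not independent molecules. The share of cells that held a read was counted with every cell thinned to 50000 reads. A gene is called higher or lower in a comparison when the higher side had at least 10 CPM, at least 10% of its cells held a read, each side had at least 20 cells, and the levels differed at least 4-fold, a side with fewer than 3 reads being set at 3.

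Classes of cells were named from markers after clustering on genes that included none of the 9. The 70 pericyte-like cells, 27 in Mural1 and 43 in Mural2, held a read in 88.1% of pairs of a cell and a measured pericyte marker. The 69 smooth muscle-like cells did so for 99.3% of pairs with smooth muscle markers, and 68 of them lay in Mural1 and Mural2, 16 and 52. The pericyte-like cells were the shallower class, with a median of 146872.5 reads against 268827. Comparison classes were 663 general capillary-like endothelial cells, 307 fibroblast-like cells, 72 aerocyte-like endothelial cells, 43 chondrocyte or perichondrial-like cells and 22 lymphatic-like cells. Cluster 3, with 175 cells, of which 44.0% were doublet-like, with reads of at least 5 endothelial and 5 mural or fibroblast markers, and cluster 4, with 83 cells, were left unnamed. Markers of other cells were present in the mural classes. Summed over 11 epithelial genes, levels ran from 75.8 to 2310 CPM over the column sets of the pericyte-like cells and from 125 to 5065 CPM over those of the smooth muscle-like cells, and 10.1% of the smooth muscle-like cells were doublet-like. Their part in the levels below was not tested, though comparisons were also run without the doublet-like cells. The CPM or the reads of each of the 9 genes in these classes are therefore given for both column sets.

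Of the voltage-gated channels, Cacna1c, the pore of the L-type channel of smooth muscle (chr6:118587240-119196418, minus strand, GRCm38), was shared by both mural classes. It reached 417 CPM in the smooth muscle-like cells of Mural1 and 294 in those of Mural2, and 319 and 232 CPM in the pericyte-like cells of the same sets. The ranges of the 2 classes overlap, and their levels differed 1.22-fold (1.17 to 1.27), which is not past the rule. A read was present in 85.5% of smooth muscle-like cells (75.0 to 92.8) and 74.3% of pericyte-like cells (62.4 to 84.0), against 4.07% of general capillary-like cells (2.70 to 5.87). Without thinning these shares were 95.7%, 75.7% and 5.88%. The next class in order was aerocyte-like at 65.1 CPM, and the lowest was general capillary-like at 9.13 CPM.

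T-type channels open at more negative voltages than L-type channels. Cacna1h (chr17:25374285-25433783, minus strand) was called higher in smooth muscle-like than in pericyte-like cells, 22.7 against 0.83 CPM, a 27.3-fold difference (14.7 to 57.4). The reads were uneven: 13.0% of smooth muscle-like cells held one, 1 cell held 40.0% of them, and the level was 30.1 CPM in Mural2 and 2.48 CPM in Mural1. Pericyte-like cells held 4 and 6 reads in the same sets. In Mural1 all 13 reads came from 1 cell. Without Mural1 the log2 difference was 5.73 in place of 4.77. No other class exceeded 1.43 CPM of Cacna1h.

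Cacna1g, the other T-type pore gene measured here (chr11:94408391-94474198, minus strand), was a gene of the fibroblast and perichondrial classes. Its level was 56.8 CPM in cluster 4, 48.7 CPM in chondrocyte or perichondrial-like cells and 13.7 CPM in fibroblast-like cells, whose column sets gave 18.7, 18.6 and 12.3 CPM. Pericyte-like cells held 2 reads in all, or 0.17 CPM, both in Mural1. Smooth muscle-like cells were at 4.45 CPM, with no read in Mural1 and 6.15 CPM in Mural2. Both mural classes were thus below the fibroblast-like cells for this gene.

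Among the TRP channels, Trpc6, a cation channel opened by diacylglycerol (chr9:8544142-8680741, plus strand), stood out in pericyte-like cells. It reached 781 CPM in Mural1 and 1173 CPM in Mural2, and a read was present in 88.6% of pericyte-like cells (78.7 to 94.9), 92.9% without thinning. The median pericyte-like cell held 811 CPM. In smooth muscle-like cells Trpc6 stood at 0.19 CPM in Mural1, which is 1 read, and 10.4 CPM in Mural2, and 1 cell held 91.3% of their reads. The 2 classes do not overlap in level, and smooth muscle-like cells were 132-fold lower (112 to 156). The classes outside the mural cells were at or under 1.02 CPM, and cluster 3 held 21.8 CPM, of which the wells in Mural2 gave 44.6 CPM and those in Mural3 1.29 CPM.

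Trpv2, a cation channel known to respond to heat and stretch (chr11:62574486-62600515, plus strand), was held by both mural classes at like levels. Pericyte-like cells gave 72.0 CPM in Mural1 and 94.6 CPM in Mural2, and smooth muscle-like cells 55.3 and 62.6 CPM. A read was present in 32.9% of pericyte-like cells and 40.6% of smooth muscle-like cells, against 1.81% of general capillary-like cells. Smooth muscle-like cells were 1.41-fold lower (1.29 to 1.53), not past the rule. In fibroblast-like cells the gene stood at 0.78 CPM, and in chondrocyte or perichondrial-like cells no read was counted in 43 cells. Aerocyte-like cells held 14.0 CPM, but 96.9% of it lay in 1 cell.

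Trpc6 and Itpr2, described below, are the pair called lower in smooth muscle-like than in pericyte-like cells, and for this reason the 250 bases before their start sites are shown. Both are from RefSeq, GRCm38.p6, 5′ to 3′ on the strand of the gene. Capitals mark matches, on either strand, of the TATA box TATAAA, the CCAAT box CCAAT, the GC box GGGCGG, the RBPJ motif TGGGAA and the CArG box, the site of serum response factor.
Trpc6, chr9:8543892-8544141, plus strand: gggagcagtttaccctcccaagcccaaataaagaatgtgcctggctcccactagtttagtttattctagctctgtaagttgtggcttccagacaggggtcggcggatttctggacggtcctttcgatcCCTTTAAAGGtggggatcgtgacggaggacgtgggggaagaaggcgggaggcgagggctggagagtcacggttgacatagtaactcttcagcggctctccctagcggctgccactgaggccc
Itpr2, chr6:146502224-146502473, minus strand: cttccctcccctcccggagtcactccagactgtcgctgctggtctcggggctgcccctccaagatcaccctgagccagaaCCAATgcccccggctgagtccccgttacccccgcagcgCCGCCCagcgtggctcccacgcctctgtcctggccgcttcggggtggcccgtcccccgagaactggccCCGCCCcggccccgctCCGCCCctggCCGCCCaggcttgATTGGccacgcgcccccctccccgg
The window of Trpc6 holds 1 match, a CArG box that ends 113 bases before the start, and such a match is present in 1.48% of 32536 distinct windows of this length. The window of Itpr2 holds 4 GC boxes and 2 CCAAT boxes, which are present in 33.0% and 33.8% of the windows. TATAAA, present in 12.3% of the windows, and TGGGAA, present in 21.6%, match in neither. GC content was 56.4% for Trpc6 and 74.4% for Itpr2, against a median of 52.4%. A match is a description of the letters and not of binding. The table of promoters matched 6 of the 9 genes, and Cacna1g, Cacna1h and Itpr1 had no entry.

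**Figure D1:**
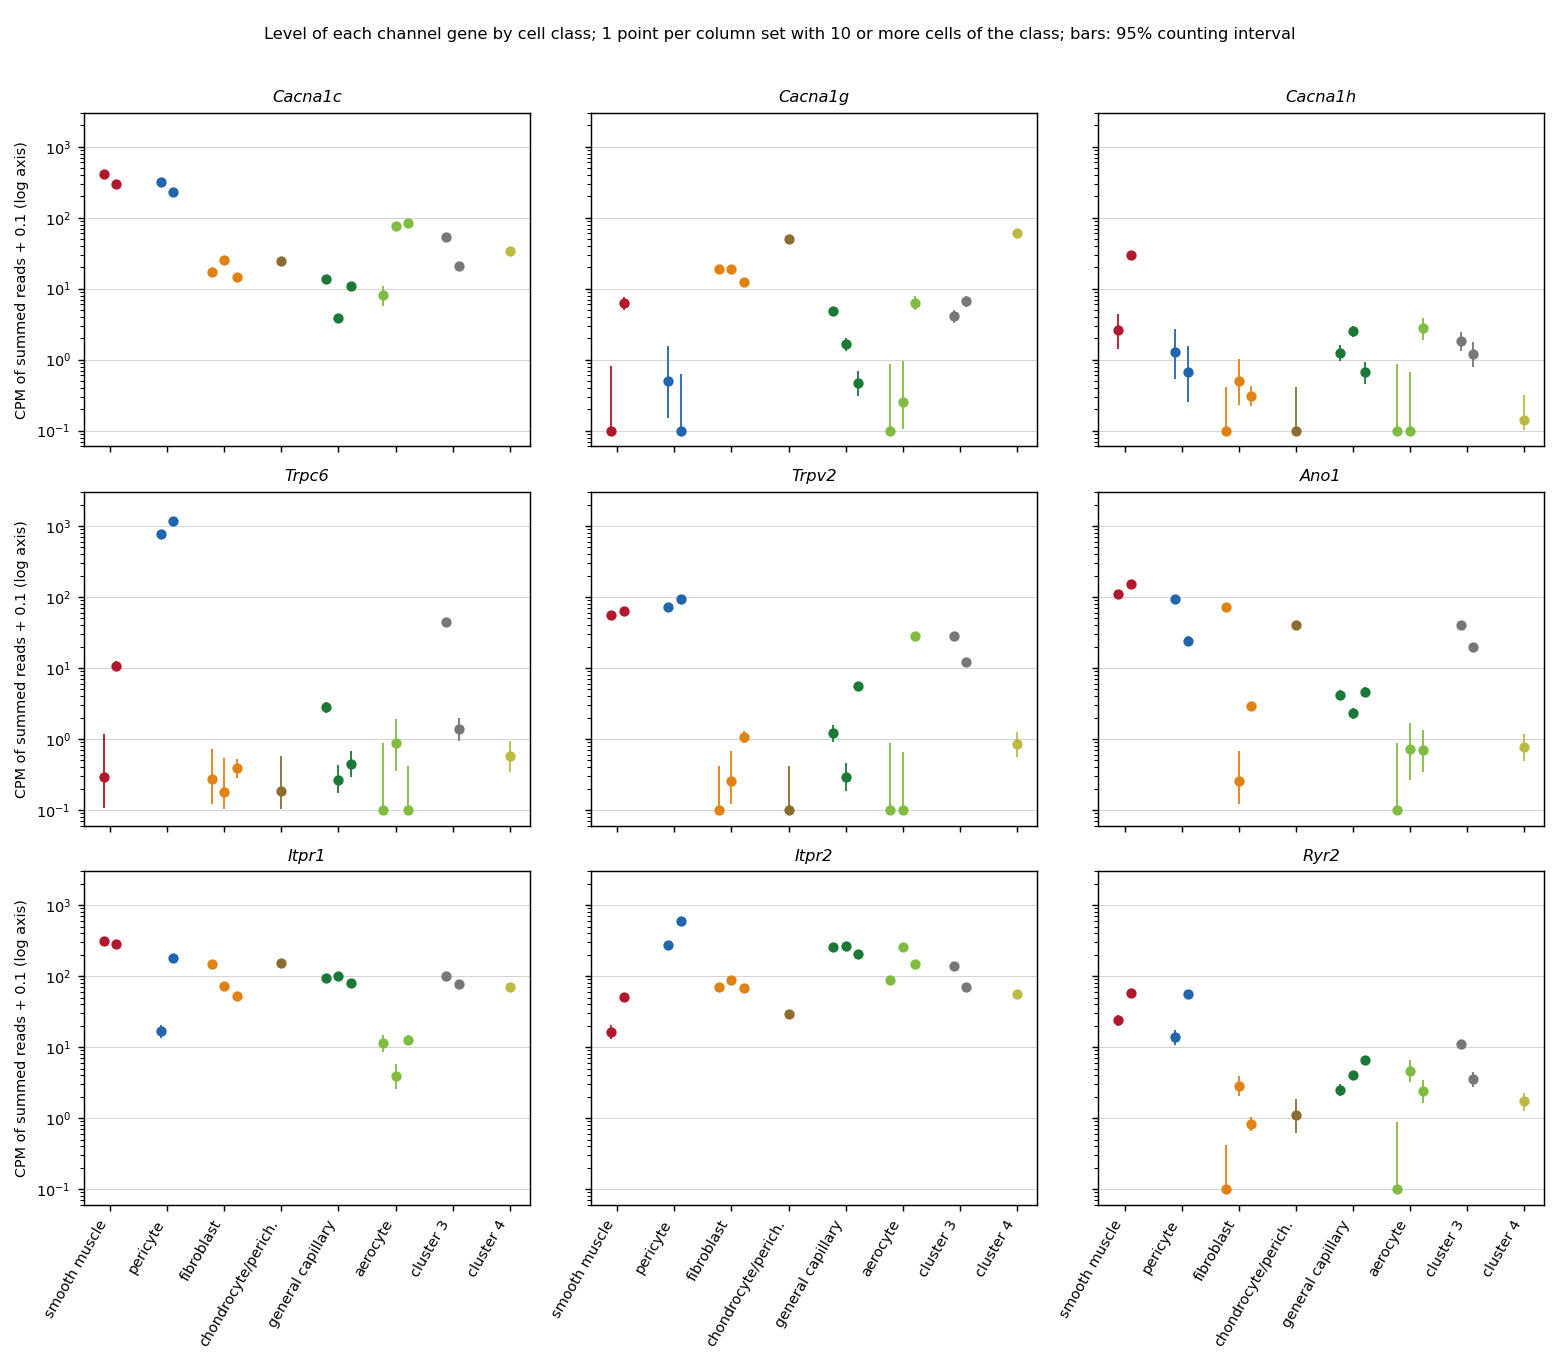
Level of each of the 9 genes in CPM of summed reads plus 0.1 on a log axis, by class, with 1 point for each column set that holds at least 10 cells of the class (sets in the order of their names) and bars for the 95% counting interval; points at the 0.1 line held no read. Trpc6 lies at 781 and 1173 CPM in pericyte-like cells and at 0.19 and 10.4 CPM in smooth muscle-like cells, while the Cacna1c points of the 2 mural classes overlap.

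Ano1, the calcium-activated chloride channel (chr7:144588549-144751974, minus strand), was highest in smooth muscle-like cells. Its level there was 110 CPM in Mural1 and 154 CPM in Mural2, and 60.9% of the cells held a read. Pericyte-like cells gave 94.8 CPM in Mural1 and 24.1 CPM in Mural2, with a read in 17.1% of cells (9.18 to 28.0), and a single cell held 49.6% of all their Ano1 reads. Without that cell the pericyte-like level was 27.8 CPM. Smooth muscle-like cells were 2.66-fold above pericyte-like cells (2.44 to 2.90), not past the rule. The gene was called higher there when the cell with most reads was left out of each class (log2 difference 2.24) and when Mural1 was left out (2.67). In fibroblast-like cells the level depended on the set, with 71.5 CPM in Mural1, where 1 cell held 60.1% of the reads, 0.16 CPM in Mural2 and 2.82 CPM in Mural3.

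IP3 receptors open in answer to the messenger that phospholipase C makes. Of Itpr1 and Itpr2, only Itpr2 was past the rule between the mural classes. Itpr1 (chr6:108213096-108551109, plus strand) was at 313 CPM in Mural1 and 288 CPM in Mural2 in smooth muscle-like cells, and 85.5% of the cells held a read. In pericyte-like cells it was at 16.8 CPM in Mural1 and 182 CPM in Mural2, so the pericyte-like level rests on the set. Smooth muscle-like cells were 2.61-fold above them (2.46 to 2.77), not past the rule. Within Mural1 alone the log2 difference was 4.22, with no call, since the smooth muscle-like side has 16 cells there. Lymphatic-like cells were highest at 320 CPM, of which 37.2% lay in 1 cell, and aerocyte-like cells were lowest at 11.9 CPM.

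Itpr2 (chr6:146108299-146502223, minus strand) had the opposite order. Pericyte-like cells gave 277 CPM in Mural1 and 606 CPM in Mural2, and 71.4% of them held a read. Smooth muscle-like cells gave 16.4 and 51.1 CPM, and 27.5% held a read. No set of one class overlaps a set of the other, and smooth muscle-like cells were 11.2-fold lower (10.4 to 12.1). General capillary-like cells, at 204 to 266 CPM over the EC sets, lay between them. Per length of exon, Itpr1 made up 16.3% of the sum of the 2 receptors in pericyte-like cells (4.7% in Mural1 and 19.5% in Mural2) and 85.1% in smooth muscle-like cells (93.9% and 82.0%).

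The same order held cell by cell. Among smooth muscle-like cells with a read of either receptor, Itpr1 per kilobase exceeded Itpr2 in 55 of 64, or 85.9% (75.0 to 93.4). Among pericyte-like cells it did so in 16 of 63, or 25.4% (15.3 to 37.9). General capillary-like cells were at 26.5% (22.3 to 31.1) and fibroblast-like cells at 49.0% (42.1 to 56.0). The intervals of the pericyte-like and general capillary-like cells overlap.

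**Figure D2:**
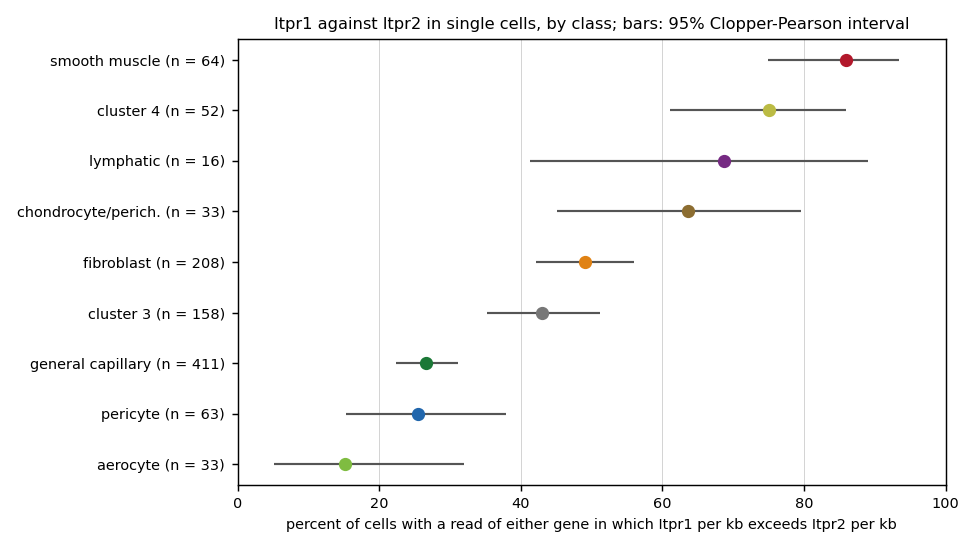
Share of cells in which Itpr1 reads per kilobase of exon exceed those of Itpr2, by class, over the cells with an unthinned read of either gene (n on the axis), with 95% Clopper-Pearson intervals. Smooth muscle-like cells are at 85.9% and pericyte-like cells at 25.4%, beside general capillary-like cells at 26.5%.

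Ryr2, the ryanodine receptor best known from heart muscle (chr13:11553102-12106945, minus strand), was low but held by both mural classes. Smooth muscle-like cells gave 24.0 CPM in Mural1 and 58.7 CPM in Mural2, with a read in 34.8% of cells. Pericyte-like cells gave 13.8 and 55.5 CPM, with a read in 17.1% of cells, and 1 cell held 50.4% of the reads. The ranges overlap, and the levels differed 1.30-fold (1.16 to 1.45), not past the rule. General capillary-like cells held 4.21 CPM, with a read in 4.98% of cells, and fibroblast-like cells 0.89 CPM. The 7 cardiomyocyte markers summed to 7631 to 13473 CPM over the smooth muscle-like sets. Nearly all of it is Actc1, an actin of heart and smooth muscle, at 11743 CPM, the only one of the 7 at 10 CPM or more. Tnnt2 stood at 7.73 CPM, Myl4 at 7.13, Myl7 at 2.63, Tnni3 at 1.82 and Myh6 at 0.20, and Nppa held no read. In pericyte-like cells the 7 summed to 1.99 to 35.2 CPM over the sets, with Tnnt2 the highest at 6.55 CPM, and none was at 0. Their part in the Ryr2 level was not tested.

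**Figure D3:**
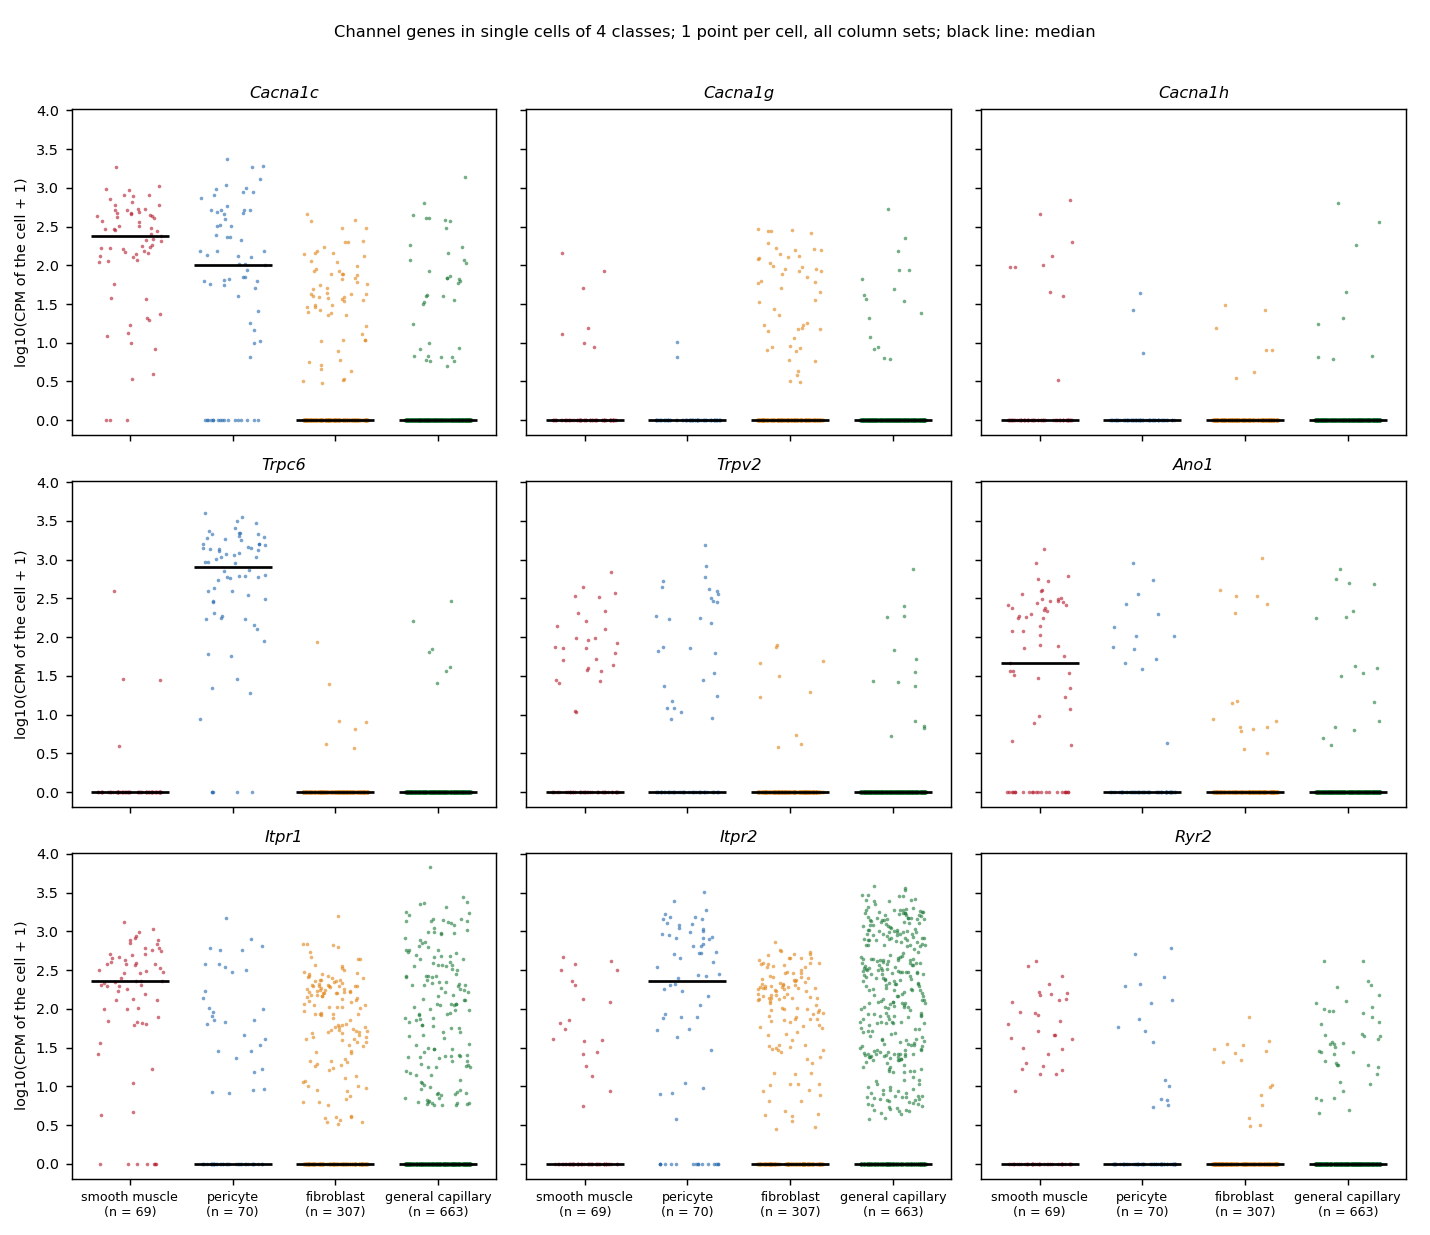
The 9 genes in single cells of 4 classes as log10 of the CPM of the cell plus 1, unthinned, with 1 point per cell and a black line at the median. The median pericyte-like cell has 811 CPM of Trpc6 and 228 CPM of Itpr2, and the median smooth muscle-like cell has 241 CPM of Cacna1c, 226 CPM of Itpr1 and 45.4 CPM of Ano1.

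Levels of different genes can be compared only per length. On this scale, CPM per kilobase of exon, Trpc6 led the pericyte-like cells at 199, followed by Itpr2 at 31.7, Trpv2 at 19.0 and Cacna1c at 12.7. Smooth muscle-like cells were led by Ano1 at 22.6, Itpr1 at 15.9, Cacna1c at 15.4 and Trpv2 at 13.4, which lie close together. Ryr2, whose exons span 28.8 kb, was at 1.33 in pericyte-like and 1.70 in smooth muscle-like cells. The median thinned cell held reads of 4 of the 9 genes in the smooth muscle-like class and of 3 in the pericyte-like class, against 1 in the general capillary-like and fibroblast-like classes. Cluster 3 also had a median of 3.

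**Figure D4:**
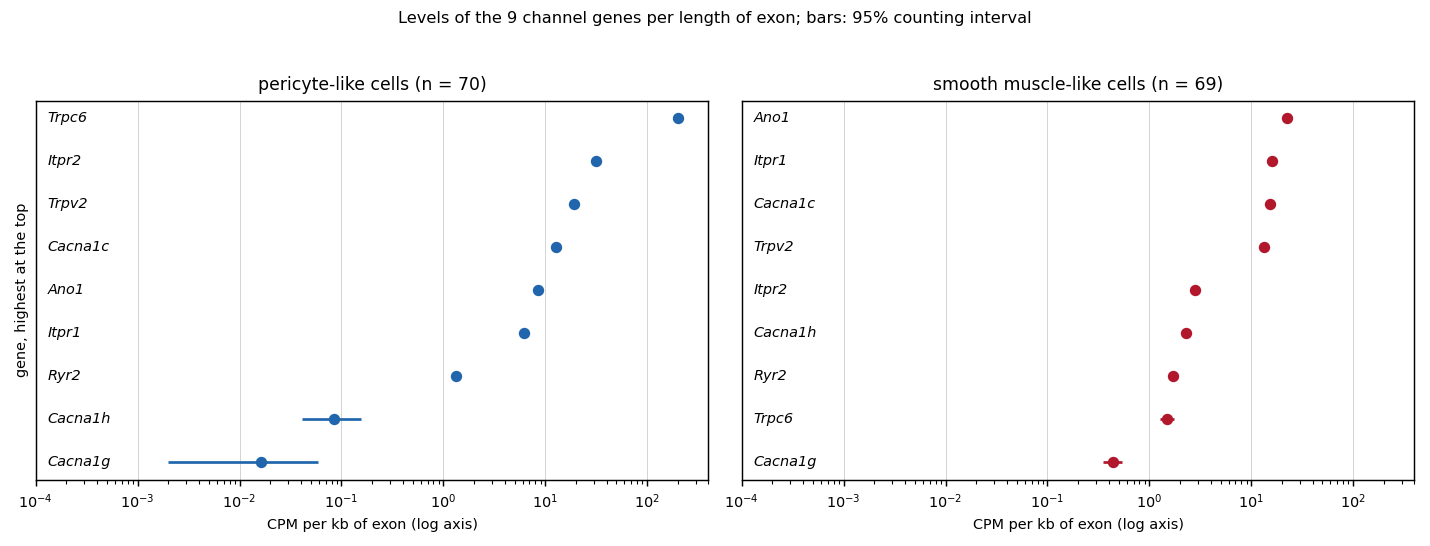
The 9 genes ordered by CPM per kilobase of exon on a log axis in the 70 pericyte-like and the 69 smooth muscle-like cells, with 95% counting intervals. Trpc6 stands at 199 in pericyte-like cells, more than any other of the 9 genes in either class, and Ano1 is at the top in smooth muscle-like cells with 22.6.

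Whether pairs of channels were read in the same cells was counted after thinning. In pericyte-like cells, Trpc6 and Itpr2 were read together in 49 of 70 cells, or 70.0%, where the product of their separate shares is 63.3%. Trpc6 was read in each of the 23 pericyte-like cells that held Trpv2, or 32.9% of the class, where the product is 29.1%. Trpv2 and Itpr1 were read together in 7.14% of pericyte-like cells, under their product of 14.6%. Cacna1c and Itpr1 were read together in 49 of the 69 smooth muscle-like cells, or 71.0%, where the product is 73.1%. Cells of 1 class come from the same column sets, so these counts are descriptions.

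Smooth muscle of the lung lies in vessels and in airways, and the smooth muscle-like class held Lgr6, a marker of the airway list, at 273 CPM. Its cells were set apart into 46 with a read of Lgr6 or Hhip and 23 without one. Actg2, the third gene of that list, was at 3260 CPM with a read in 97.1% of the cells and was not used to divide them, so the 23 cells are not free of airway markers. Cacna1c was at 311 CPM in the former and 360 CPM in the latter, Itpr1 at 283 and 309 CPM, Ano1 at 124 and 179 CPM, and Ryr2 at 51.1 and 43.5 CPM. Trpv2 was at 42.4 and 100.3 CPM and Itpr2 at 29.8 and 67.7 CPM, both under the 4-fold bound. Cacna1h was at 11.1 and 48.5 CPM, read in 13.0% and 17.4% of the unthinned cells, and Cacna1g at 1.96 and 10.2 CPM, read in 6.52% and 17.4%. Both of these differed more than 4-fold, but on few cells. For Cacna1h the reads were 153 and 290. Most of the 290 came from the single cell with most Cacna1h reads described above, so the size of this difference rests on that cell. Cacna1g rests on 27 and 61 reads. All 150 Trpc6 reads of the class lay in the 46 cells, of which 8.70% held one without thinning. Most of these reads came from the single cell named for Trpc6 above, so they do not set the 2 groups apart.

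Comparing whole column sets, Mural1 and Mural2 together had 6 of the 9 genes higher than the Cldn5(BAC)eGFP cells and none lower, where 5.97% of all 21947 genes were higher and 2.44% lower. Trpc6 was 154-fold higher (131 to 183), Ano1 14.3-fold, Cacna1c 7.22-fold, Cacna1g 6.53-fold, Trpv2 5.17-fold and Ryr2 4.68-fold. Itpr1, at 151 against 88.7 CPM, Itpr2, at 129 against 221 CPM, and Cacna1h, at 5.16 against 1.34 CPM, were not past the rule. Leaving out EC1 took Trpc6 from a log2 difference of 7.27 to 8.85 and Cacna1g from 2.71 to 3.33, and leaving out EC3 took Trpv2 from 2.37 to 3.62. Without Mural2 Cacna1g was at 3.34. Ryr2 and Trpv2 were not past the rule without EC1 (log2 differences 1.96 and 1.92) or without Mural2 (0.59 and 1.70), nor was Cacna1g without Mural1 (2.11). Trpv2 was also not past it in cells with at least 150000 reads. The column sets did not vary alike. Trpc6 was at 2.27, 0.33 and 0.27 CPM in EC1, EC2 and EC3 and at 107, 157 and 0.47 CPM in Mural1, Mural2 and Mural3. Cacna1c was at 12.7, 14.3 and 25.5 CPM in the EC sets and at 129, 127 and 19.3 CPM in the Mural sets. Itpr2 was at 224, 254 and 186 CPM in the EC sets and at 83.3, 156 and 66.2 CPM in the Mural sets, below every EC set. In mixed populations, fewer cells of a type and less RNA per cell cannot be told apart.

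Mural3 held 1 smooth muscle-like and no pericyte-like cell. Cacna1g was the only one of the 9 genes past the rule against Cldn5(BAC)eGFP cells, at 20.7 against 2.22 CPM (9.31-fold, 8.34 to 10.4; log2 difference 3.22, and 3.84 without EC1), where 4.73% of genes were higher and 3.42% lower. Trimmed-mean scaling moved the split of all genes from 1037 higher and 751 lower to 1236 and 598. Trpc6 was at 0.47 CPM in Mural3 and 0.89 CPM in the Cldn5(BAC)eGFP cells. Within Mural3, the 71 cells of cluster 4 held 61.1 CPM of Cacna1g and the 238 fibroblast-like cells 12.3 CPM, a 4.96-fold difference (4.59 to 5.36) in a comparison where 0.896% of 10942 genes were higher and 0.621% lower. This comparison was not among those first set out. Cluster 4 is the group with the highest Cacna1g level, so the difference is a description. Cacna1d, another voltage-gated pore, was likewise higher in cluster 4, at 81.8 against 11.5 CPM.

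The direct comparison of the mural classes used 68 smooth muscle-like and 70 pericyte-like cells and the 10942 genes kept out of the clustering. Of the 9 genes, Cacna1h was higher in smooth muscle-like cells, Trpc6 and Itpr2 were lower, and 6 were not past the rule. Of all genes tested 4.55% were higher and 3.67% lower. The median log2 difference over all genes tested was -0.66 (-0.38 under trimmed-mean scaling). It includes genes whose reads were set at the minimum on both sides, and the total reads of each class set the difference of such genes. The median therefore does not place a difference near 0 among expressed genes. The calls on the 9 genes were the same under trimmed-mean scaling. Trpc6 and Itpr2 were also called lower within Mural2, with log2 differences of -6.81 and -3.57. Within Mural1 the differences were -10.42 and -4.08, with no call, since 16 smooth muscle-like cells are under the minimum.

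Against general capillary-like cells, 5 genes were higher in smooth muscle-like cells and Itpr2 was lower, where 5.39% of genes were higher and 3.63% lower. Ano1 was 40.4-fold higher (36.6 to 44.6), Cacna1c 35.8-fold, Trpv2 28.3-fold, Cacna1h 15.8-fold and Ryr2 11.7-fold, and Itpr2 was 5.80-fold lower (5.41 to 6.23). In pericyte-like cells 5 genes were higher and none was lower, where 4.08% of genes were higher and 3.03% lower. Trpc6 was 988-fold higher (833 to 1180), Trpv2 39.7-fold, Cacna1c 29.3-fold, Ano1 15.2-fold and Ryr2 9.04-fold. Ryr2 was not past the rule in pericyte-like cells without Mural2 (log2 difference 1.71). Leaving out a set moved the size of other calls, which were kept. Trpc6 was at 2.68, 0.17 and 0.34 CPM in the capillary-like cells of EC1, EC2 and EC3, and its log2 difference went from 9.95 to 12.00 without EC1. For Trpv2 it went from 5.31 in pericyte-like cells to 4.70 without EC2 and 7.12 without EC3, and from 4.82 in smooth muscle-like cells to 4.21 and 6.63. Ano1 in pericyte-like cells went from 3.92 to 2.78 without Mural1 and 4.75 without Mural2, and Cacna1h in smooth muscle-like cells from 3.98 to 4.73 without EC2. Both comparisons use the same capillary cells.

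Against the 69 fibroblast-like cells of the same column sets, 5 genes were higher in smooth muscle-like cells and Cacna1g was lower, where 3.79% of genes were higher and 3.12% lower. Cacna1c was 15.3-fold higher (14.0 to 16.7) and Ryr2 34.4-fold. Trpv2 and Cacna1h rest on 2 and 5 fibroblast reads, with ratios of 737 (204 to 6097) and 110 (46.9 to 341). Ratios that rest on 1 to 3 reads use the reads as counted; with the floor of 3 reads the log2 difference of Trpv2 was 8.94, and 8.04 without Mural1. Ryr2 went from 5.10 to 4.41 without Mural1. Ano1, 4.14-fold higher, rests on the set: its log2 difference was 0.63 in Mural1, at 110 against 71.5 CPM, and 9.34 in Mural2, at 154 against 0.16 CPM, which is 2 fibroblast reads. It was not past the rule under trimmed-mean (1.79) or median-ratio scaling (1.78), in cells with at least 150000 reads (1.91), without doublet-like cells (1.88) or at Leiden resolution 2 (1.99). Cacna1g, 4.14-fold lower, was not past it without Mural1 (-1.59) or without doublet-like cells. Under that scaling 333 genes were higher and 407 lower, against 415 and 341 without it.

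In pericyte-like cells 5 genes were higher than in the same fibroblast-like cells and Cacna1g was lower, where 4.62% of genes were higher and 4.31% lower. Trpc6 had 12179 reads against 3, a ratio of 8192 (2803 to 39731), and Trpv2 1027 reads against 2, a ratio of 1036 (286 to 8568). Ryr2 was 26.5-fold, Cacna1c 12.5-fold and Itpr2 5.83-fold higher, and Itpr2 was not past the rule without Mural2 (log2 difference 1.96). Cacna1g had 2 reads against 454, a ratio of 112 (31.0 to 932) in favour of the fibroblast-like cells. With the floor of 3 reads the log2 difference was 9.43 for Trpv2 (8.64 without Mural1 and 8.13 without Mural2) and -6.23 for Cacna1g (-5.45 and -4.97). That of Trpc6 went from 13.00 to 12.27 and 11.57, and without Mural2 that of Ryr2 went from 4.73 to 5.74 and that of Cacna1c from 3.64 to 4.23. Trimmed-mean scaling left the calls on the 9 genes as they were and turned the split of all genes from 506 higher and 472 lower to 328 and 629.

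**Figure D5:**
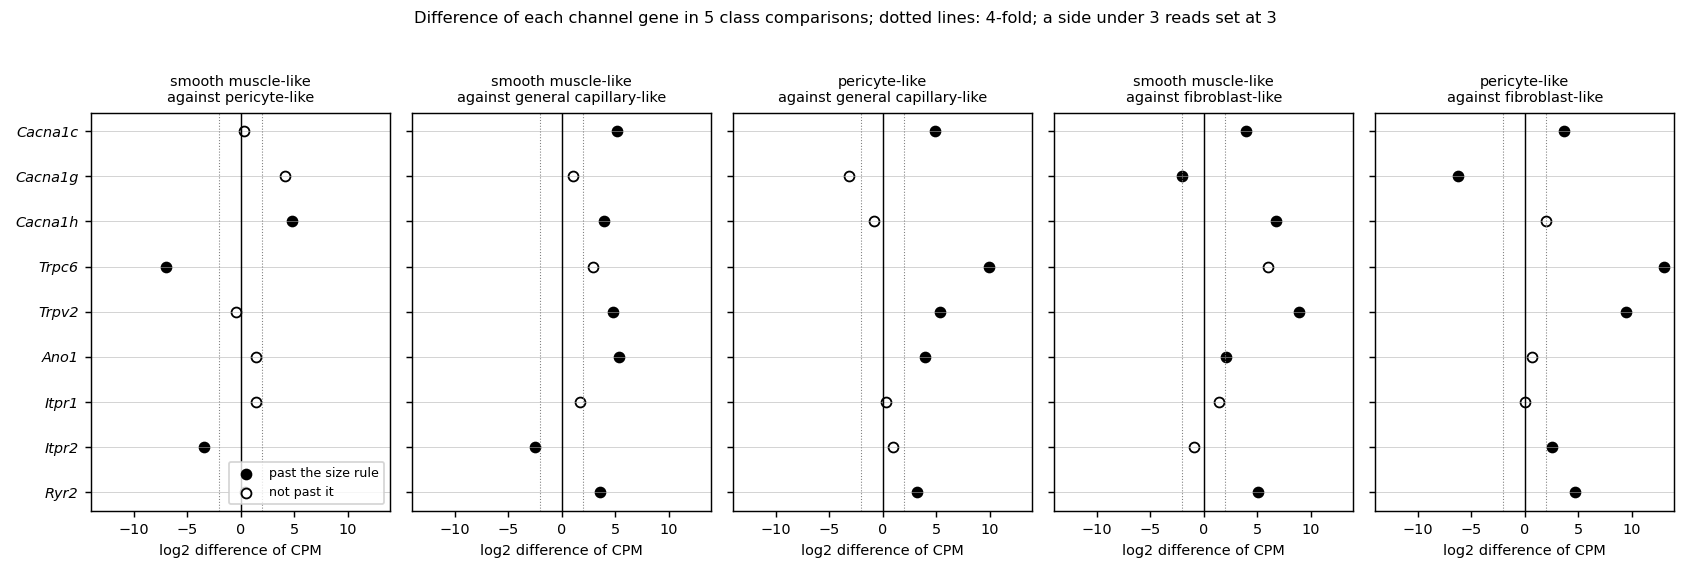
Log2 difference of CPM for the 9 genes in 5 class comparisons, with filled points past the size rule, open points not past it, dotted lines at 4-fold, and a side under 3 reads set at 3. Trpc6 and Itpr2 lie to the left in smooth muscle-like against pericyte-like cells, and Cacna1c, Trpv2 and Ryr2 lie to the right in all 4 comparisons of a mural class with another class.

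The other 79 measured genes of a list of calcium handling were compared in the same way. In smooth muscle-like against pericyte-like cells 8 were higher and 5 lower, where 4.55% of all genes tested were higher and 3.67% lower. The median log2 difference was 0.15 against -0.66 for all genes tested. Medians of the list and of all genes, here and below, include genes with fewer than 3 reads on both sides. The total reads of the 2 groups set the difference of such genes, so these medians do not compare expressed genes alone. The partners of store release Mrvi1, which couples cGMP kinase to the IP3 receptor, Casq1, which buffers stored calcium, and Jph2, which holds the store close to the cell membrane, were 37.6-fold, 10.3-fold and 4.09-fold higher. Of the genes that make or follow IP3, Plcb4 was at 462 against 33.0 CPM and Plcd1 at 92.9 against 8.88 CPM. Slc8a1, a sodium-calcium exchanger, was at 154 against 2.90 CPM, Gem, an inhibitor of L-type channels, at 709 against 56.3 CPM, and Kcnmb1, the beta subunit of the large calcium-activated potassium channel, at 385 against 60.6 CPM.

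Among the genes lower in smooth muscle-like cells, Stim2, a sensor of store calcium, was at 25.3 against 169 CPM, Rem1, another inhibitor of L-type channels, at 3.74 against 22.8 CPM, the calcium pump Atp2b1 at 60.1 against 328 CPM and Pkd2 at 74.8 against 334 CPM. None of the 7 other voltage-gated pore genes passed the rule in this comparison.

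Against general capillary-like cells, 17 of the 79 genes were higher and 9 lower in smooth muscle-like cells (median log2 difference 0.74, all genes -0.15), and 11 were higher and 7 lower in pericyte-like cells (median -0.003, all genes 0.13). Over all genes tested, 5.39% were higher and 3.63% lower in smooth muscle-like cells, and 4.08% and 3.03% in pericyte-like cells. Jph2, Kcnmb1, Rrad, Cacna2d1, Cacnb2, Asph, Trpc1 and Atp2b4 were higher in both. Cacna2d1 and Cacnb2, the auxiliary subunits of Cacna1c channels, were at 98.1 and 28.0 CPM in pericyte-like cells and 46.7 and 20.3 CPM in smooth muscle-like cells, against 0.93 and 3.56 CPM in capillary-like cells. The channels Piezo1 and Piezo2, the store-operated channel Orai1, the store pump Atp2a3 and the receptor Itpr3 were lower in both mural classes, Itpr3 at 1.69 and 5.64 CPM against 51.7 CPM.

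Against fibroblast-like cells, 15 of the 79 were higher and 5 lower in smooth muscle-like cells (median 1.01, all genes 0.32), and 8 were higher and 7 lower in pericyte-like cells (median 0.75, all genes 1.01). Both all-gene medians here are the values of genes with fewer than 3 reads on both sides, so they do not place the list among expressed genes. Over all genes tested, 3.79% were higher and 3.12% lower in smooth muscle-like cells, and 4.62% and 4.31% in pericyte-like cells. Rrad, Cacnb2, Kcnmb1, Jph2, Atp2b4 and Atp2a3 were higher in both, with Rrad at 509 and 147 CPM against 1.11 CPM. The muscle store proteins Casq1 and Pln were higher in the smooth muscle-like cells, at 82.8 against 0.70 CPM and 72.2 against 5.02 CPM. Cacna2d3 and Fkbp1b were lower in both mural classes. In Mural1 and Mural2 as a whole 14 of the 79 were higher than in Cldn5(BAC)eGFP cells and 3 lower (median 0.55, all genes 0.02), and in Mural3 6 were higher and 8 lower (median -0.77, all genes -0.44). Over all genes, 5.97% were higher and 2.44% lower in Mural1 and Mural2, and 4.73% and 3.42% in Mural3.

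The 9 genes also differed among endothelial classes, in comparisons added after the levels had been seen. Aerocytes are the large capillary cells that face the air spaces. Cacna1c was at 66.1 CPM in aerocyte-like against 9.15 CPM in general capillary-like cells, a 7.23-fold difference (6.70 to 7.80), where 0.896% of genes were higher and 1.81% lower. The levels were 76.2 against 3.72 CPM in EC2, 84.3 against 10.9 CPM in EC3 and 7.97 against 13.7 CPM in EC1, where 16 aerocyte-like cells allow no call. Itpr1 was 9.44-fold lower in aerocyte-like cells (8.27 to 10.8). Its levels were 11.3 against 95.2 CPM in EC1, 3.82 against 99.6 CPM in EC2 and 12.5 against 81.2 CPM in EC3. In the 22 lymphatic-like cells Itpr2 was 4.64-fold lower than in general capillary-like cells (4.14 to 5.21), where 3.35% of genes were higher and 3.92% lower. The size rests on EC1, where 7 lymphatic-like cells held no Itpr2 read against 254 CPM. In EC2 the levels were 76.8 against 266 CPM (6 cells, log2 difference -1.79) and in EC3 74.5 against 204 CPM (9 cells, -1.45), both under 4-fold. Ano1, Trpc6 and Cacna1h had no read in the lymphatic-like cells, and 0 of 22 cells allows a share of cells with a read of up to 13.6%.

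Chondrocyte or perichondrial-like cells had none of the 9 genes past the rule against the fibroblast-like cells of Mural1 and Mural2, where 3.01% of genes were higher and 3.33% lower. This comparison, too, was not among those first set out. Cacna1g was at 48.7 against 18.7 CPM and Itpr1 at 142 against 109 CPM. Of the 79 list genes 10 were higher and 6 lower there (median log2 difference 0.24, all genes 0.67). Among those higher, Trpv4 was at 150 against 1.32 CPM, Cacna1e was at 87.3 against 1.64 CPM and Kcnma1, the pore of the large calcium-activated potassium channel, was at 182 against 0.58 CPM. Those lower were Plcb4 at 0.46 against 59.4 CPM, Slc8a1 at 10.6 against 42.9 CPM, Cacnb3 at 1.76 against 23.1 CPM, Rem1 at 1.76 against 19.1 CPM, Cacna2d3 at 0.23 against 14.7 CPM and Cacna1a at 0.92 against 12.2 CPM.

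For each gene, the 3 genes most like it were sought by Pearson's r of log2(CPM + 1) over 17 groups of cells, each a class or cluster within a column set. Several groups come from the same column set, so r describes these groups. Trpc6 was followed most closely by Fam162b (r = 0.99), Card9 (0.98) and Sstr2 (0.97). All 3 were open to the clustering, and Fam162b is in the pericyte marker list. Of the genes named next, Kcnj12, Lmcd1, Clmp, Tnfrsf11a, Mlf1, Myom3, Adcy5, Anp32b, Slc25a23, Sgip1, Chd8 and Ifih1 were also open to it. Trpv2 was most like Kcnj12 (0.91), Myom3 (0.90) and Uqcrfs1 (0.86), and Cacna1c like Adra1d (0.85), Kcnj12 (0.85) and Lmcd1 (0.85). Ryr2 was most like Ppp1r1a (0.91), Parm1 (0.87) and Kcnmb1 (0.86), and Ano1 like Atp5g3 (0.90), Cox6c (0.83) and Adcy5 (0.83). Cacna1h was most like Stac (0.85), Tnfrsf11a (0.83) and Mlf1 (0.82), and Cacna1g like Clmp (0.91), Faim2 (0.90) and Pcdh9 (0.89). The receptors gave Nfxl1 (0.93), Anp32b (0.92) and Slc25a23 (0.92) for Itpr1 and Sgip1 (0.90), Chd8 (0.89) and Ifih1 (0.89) for Itpr2.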

How the data were processed

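The submitters' processing notes name STAR 2.4.2a and mm10. How genes were counted, with which annotation, and how cells were filtered is not given in the sources used here. The deposited table holds whole-number read counts per gene and cell. A second table by the authors holds a score, the counts scaled to about 500000 per cell and rounded, and served as an alternative. The reporter row was left out of the totals, and no cell was removed. SMART-seq2 does not mark strand, and no gene of the table shares exon sequence with the 9 genes. Genes outside the table do, on the opposite strand. Tpsg1 shares 158 bases with Cacna1h, and Gm44101 and Gm44040 share 181 and 108 bases with Itpr1. Their part in the counts was not tested.

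The 9 genes, the calcium list and part of the other genes that mark no cell type (10942 in all) were kept out of the clustering and form the background of class comparisons. Counts per 10000 reads on a log scale, 2000 variable genes, 30 components and 15 neighbours gave 10 Leiden clusters at resolution 1 (scanpy 1.11.5). A marker list could name a cluster where at least 40% of pairs of a cell and a marker held a read. Of such lists, the one furthest above its mean over the other clusters gave the name. Pericyte-like cells also reached 54.3% for smooth muscle and 50.7% for fibroblast markers. Smooth muscle-like cells reached 57.8% for pericyte and 54.1% for fibroblast markers. A cluster was left unnamed where epithelial or leukocyte markers reached 50%, or where its 10 top genes held more markers of other lists. Cluster 3 was at 73.4% for epithelial markers. Cluster 4 was at 89.8% for fibroblast markers but had Hhip, Dkk2 and Lamc3, markers of other lists, among its top genes. No cell was removed as a doublet, and doublet-like cells were left out in an alternative. Intervals are exact Poisson, Clopper-Pearson and conditional binomial at 95%. Other scalings used edgeR 4.0.16 for factors only. Named are the 9 genes, those of the calcium list past the size rule, and the 3 genes most like each. The genes, lists and rules were chosen with earlier results of these data known. Of the calcium list, 1 gene is counted but not reported here by name.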

Additional observations from a re-analysis of the deposited data

Results flagged for a closer look

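Itpr1 in pericyte-like against fibroblast-like cells went opposite ways in the column sets. In Mural1 the log2 difference was -3.17, with 16.8 CPM in 27 pericyte-like cells against 150 CPM in 35 fibroblast-like cells. In Mural2 it was 1.34, with 182 CPM in 43 pericyte-like cells against 71.6 CPM in 34 fibroblast-like cells. The difference between the sets was not tested.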

How the results depend on the processing

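Of 112 alternative counts of the 9 genes past the size rule, 104 stayed within 1.5 times the main count. Against Cldn5(BAC)eGFP cells, the 6 genes of Mural1 and Mural2 became 2 at 8-fold and 3 at 50 CPM and 25% of cells. The single gene of Mural3 became 2 at 2-fold, 2 with no filter on low values and 0 at 50 CPM and 25% of cells. The 3 genes between the mural classes became 5 at 2-fold. At 50 CPM and 25% of cells, the 5 genes of pericyte-like against general capillary-like cells became 3, and the 6 of smooth muscle-like against fibroblast-like cells became 3. Of 1008 alternatives for single genes, 941 kept direction and call, 37 lost the call and 15 gained one. Itpr1 reversed in pericyte-like cells without Mural2, to log2 differences of -2.46 against general capillary-like and -3.17 against fibroblast-like cells; the cause was not tested. Without replicates, intervals cover counting error only. Smooth muscle-like comparisons without Mural2 have no call, because 16 cells are under the minimum of 20. The alternatives with cluster 4 counted as fibroblast-like and without cluster 3 were chosen after seeing the data. No paired analysis was possible because each population is 1 sample and no result comes from a test.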

Other observations

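Other genes of calcium handling set the endothelial classes apart. Of the 79 genes of the list, 3 were higher and 3 lower in aerocyte-like than in general capillary-like cells, where 0.896% of all genes tested were higher and 1.81% lower. Gem, an inhibitor of L-type channels, was at 191 against 19.5 CPM, and Cacnb2, an auxiliary subunit of those channels, at 15.2 against 3.56 CPM. The IP3 receptor Itpr3 had 2 reads in aerocyte-like cells against 51.7 CPM. In lymphatic-like cells 8 were higher and 6 lower than in general capillary-like cells, where 3.35% of all genes tested were higher and 3.92% lower. Cacna1e was at 61.0 against 4.47 CPM, while Atp2a3, a pump that fills the calcium store, had 1 read in 22 cells against 747 CPM.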
